A study of Rattus norvegicus and Mus musculus and Macaca mulatta with 84 samples.

Results

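The livers of UCD-T2DM rats that had been diabetic for 6 months were compared with those of UCD-T2DM rats that had been diabetic for 3 months, using 11 of the 84 samples of the series. The 6-month group held 6 livers and the 3-month group held 5, and the members were chosen by the labelled duration of the diabetic phenotype alone. Each library was made from polyA+ RNA of liver and summarised as normalised read counts for 32754 annotated genes. The same table holds 5 prediabetic livers and 4 livers taken 2 weeks after onset, all of the same strain, and these served to place the levels seen at the later times. The study compared several models of diabetes and followed the microRNA miR-29, whose targets include many collagen genes.

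The UCD-T2DM rat is a polygenic model in which obesity and insulin resistance come first and hyperglycaemia starts spontaneously in adulthood. It carries no transgene and unlike many rodent models it becomes diabetic in both sexes. In liver, insulin normally switches on the genes of glycolysis and fatty acid synthesis and restrains gluconeogenesis, and loss of its action reverses this pattern. The labels give the strain, the tissue and the duration for every group, and no treatment, diet, sex or age. Age and duration of diabetes therefore cannot be told apart. The Y-linked gene Eif2s3y had between 990 and 1438 normalised reads in 6-month livers and between 982 and 1279 in 3-month livers. Kdm5d, also Y-linked, had between 416 and 714 at 6 months and between 386 and 671 at 3 months. Every late liver thus held reads of both Y-linked genes.

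The values of a library summed to between 41511393 and 49858906 at 6 months and between 37623525 and 42079766 at 3 months. Albumin alone took 6.62% to 13.3% of the sum at 6 months and 4.51% to 12.3% at 3 months. All 12 hepatocyte markers in the table were present in each of the 11 late livers, and 8 pancreas genes, among them Ins1, Ins2 and Prss1, were listed at 0 in all 11. Correlations of log2 values across tested genes ran from 0.958 to 0.980 between pairs of 6-month livers and from 0.959 to 0.977 between pairs of 3-month livers. Between a 6-month and a 3-month liver they ran from 0.947 to 0.978, and 5 of the 11 livers had a higher median correlation with the other late group than with their own. Between either late group and prediabetic liver they ran from 0.931 to 0.973.

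Few genes separated the later livers. Each gene was tested with limma on log2(value + 1) in a fit of all 20 UCD-T2DM libraries, and it was called at a Benjamini-Hochberg adjusted p under 0.05. Of 13640 genes with a mean of at least 10, 2 were called, which is 0.0147%, and both were lower at 6 months. No gene was called higher at 6 months by limma with these settings, and a pseudocount of 10 in place of 1 gave 3 (Resp18, Susd4 and Caln1). At an unadjusted p under 0.05 there were 1058 genes (7.76%), of which 599 (4.39%) were higher and 459 (3.37%) lower, and leaving out 1 late liver at a time gave between 662 (without 6-month replicate 2) and 1438 (without 3-month replicate 4). Without prediabetic replicate 2, which had the lowest correlation with its group, there were 1750, with 828 higher and 922 lower. The balance of directions thus depended on the fit. The 11 late livers alone gave 606 higher and 663 lower, and array weights gave 627 and 646. Shares of all genes set beside the gene lists below are those of the main fit. In 116 genes (0.85%) the 2 groups did not overlap, 53 of them (0.389%) higher and 63 (0.462%) lower at 6 months, and 133 to 332 did so with 1 late liver fewer, the highest number without 3-month replicate 4. The same fit called 2875 genes (21.1%) between 6-month and prediabetic livers and 2248 genes (16.5%) between 3-month and prediabetic livers, in comparisons that share the prediabetic libraries.

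The interval around each difference says how large a change could have been missed. The median log2 difference over all genes was 0.0094 and the median standard error 0.16, and 51.7% of the differences were above 0. For 11668 genes (85.5%) the 95% interval of the difference lay within 1 log2 unit of 0 on both sides. Changes of more than 2-fold between 3 and 6 months were thus outside the interval for most genes, and for the other 14.5% they were not. Estimated differences above 1 log2 unit in either direction numbered 156, with 72 higher and 84 lower at 6 months.

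**Figure D1:**
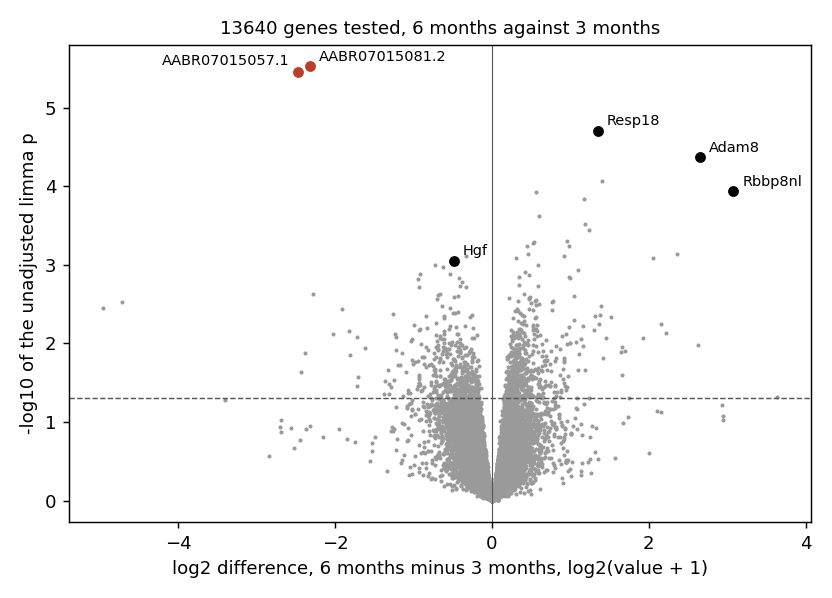
Log2 difference of 6 months minus 3 months on the log2(value + 1) scale (horizontal) against -log10 of the unadjusted limma p (vertical) for 13640 genes, 1 point each. The dashed line marks an unadjusted p of 0.05, the 2 called loci are red at the upper left, and 4 further genes named in the text are black.

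Both called genes are loci named only by a genome sequence contig, AABR07015081.2 (ENSRNOG00000054945) and AABR07015057.1 (ENSRNOG00000060518), and no function is annotated for either in the tables used here. AABR07015057.1 had a lowest value of 10129, a median of 11682 and a highest value of 13502 normalised reads in 6-month livers, against 61188, 59135, 62978, 66242 and 71532 in 3-month livers. Every 6-month liver lay far below every 3-month liver. The means differed 5.53-fold, with a log2 difference of -2.47 ± 0.39 (SE) and an adjusted p of 0.0242 (limma). AABR07015081.2 had a lowest value of 1277, a median of 1358 and a highest value of 1838 at 6 months, against 7743, 5646, 7152, 7361 and 7551 at 3 months, a log2 difference of -2.32 ± 0.36 (SE) with an adjusted p of 0.0242 (limma). Here too the groups were fully separate.

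The 2-week group shows that these loci take 2 levels within a single time point. In prediabetic livers AABR07015057.1 had 63797, 28050, 68481, 75737 and 66133 normalised reads. The value of 28050 lay between the levels of the 6-month and 3-month groups. At 2 weeks it had 12345, 74172, 9960 and 8506, so that 3 livers sat at the level of the 6-month group and 1 at the level of the 3-month group. AABR07015081.2 followed the same libraries, with 1584, 6258, 1226 and 811 at 2 weeks. The ratio of AABR07015057.1 to AABR07015081.2 stayed between 7.21 and 11.9 in all 20 libraries. Whether the loci share reads was not tested. Against prediabetic liver the log2 difference of AABR07015057.1 was -2.31 (adjusted p = 5.38e-04, limma) at 6 months and 0.16 (adjusted p = 0.816) at 3 months.

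Both calls were lost in most runs that left out a late liver. Leaving out 1 of the 11 livers at a time kept the log2 difference of AABR07015057.1 between -2.51 and -2.43, while both loci missed the threshold in 9 of the 11 runs, with adjusted p from 0.0557 to 0.113 (limma), and kept it without 6-month replicate 4 or 6. In a fit of the 11 late livers alone, without the scattered 2-week and prediabetic values, the adjusted p of AABR07015057.1 was 1.32e-07. A further 4 loci with similar contig names, AABR07015055.1, AABR07015066.1, AABR07015078.1 and AABR07015080.2, had values within 0.893% of each other in every library and are not separate measurements. AABR07015066.1 ranged from 2.03 to 516 at 6 months and had 5.62, 342, 673, 768 and 4.43 normalised reads at 3 months, a log2 difference of 0.07 ± 2.18 (SE).

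**Figure D2:**
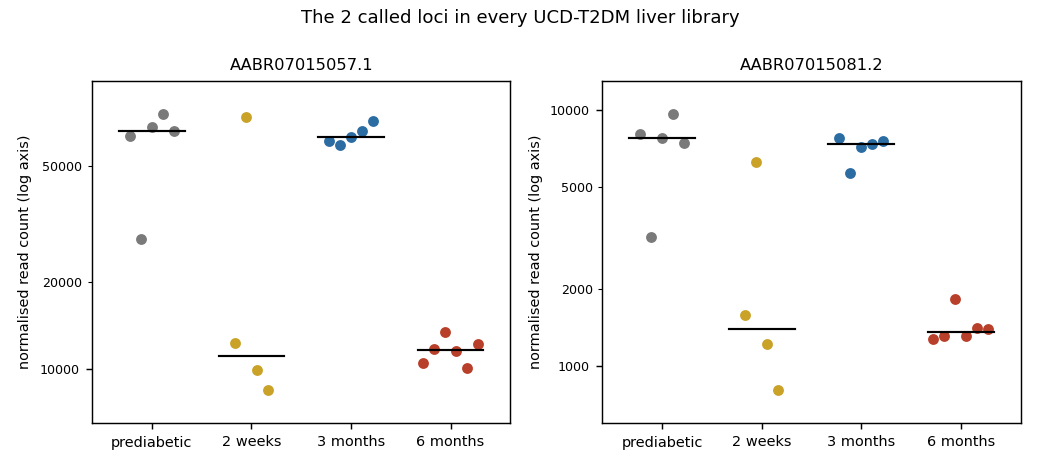
Normalised read counts on a log axis for the called loci AABR07015057.1 (left) and AABR07015081.2 (right) in prediabetic, 2-week, 3-month and 6-month livers, 1 point per library, with a line at each group median. The 6-month livers lie between 10129 and 13502 on the left, below every 3-month liver, and the 2-week livers fall at both levels.

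The genes next in order of p are given as values, since none passed the threshold. Resp18, which encodes a neuroendocrine secretory granule protein, came closest. It had a lowest value of 1328, a median of 1987 and a highest value of 3692 normalised reads in 6-month livers, against 718, 1045, 826, 917 and 696 in 3-month livers. The groups did not overlap, and the log2 difference was 1.35 ± 0.24 (SE) with an adjusted p of 0.0901 (limma). The gene averaged 199 in prediabetic and 187 in 2-week livers, so its order over the 4 groups was prediabetic and 2 weeks, then 3 months, then 6 months. Against prediabetic liver it was higher by 3.42 log2 units at 6 months (adjusted p = 1.36e-07, limma) and by 2.07 at 3 months (adjusted p = 6.57e-05).

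Susd4 and Ankef1, picked out after their values were seen, had a similar order at lower levels. Susd4, a gene for a complement-regulating membrane protein, ranged from 43.1 to 168 normalised reads at 6 months and had 22.9, 45.4, 14.8, 15.4 and 7.11 at 3 months, against a mean of 2.80 in prediabetic livers. Ankef1, an ankyrin repeat gene, ranged from 13.7 to 60.5 at 6 months and from 0.889 to 22.2 at 3 months, with a prediabetic mean of 0.992. The log2 difference between 6 and 3 months was 2.05 ± 0.52 (SE) for Susd4 and 2.36 ± 0.59 (SE) for Ankef1, and the groups overlapped in both genes. Cxcl14, a chemokine, ranged from 613 to 1059 at 6 months, against 495, 582, 482, 446 and 252 at 3 months, without overlap. Its log2 difference was 0.98 ± 0.27 (SE, adjusted p = 0.575, limma), over a mean of 281 in prediabetic livers. Caln1, a calcium-binding protein gene, ranged from 29.5 to 37.4 at 6 months and from 5.68 to 20.3 at 3 months, against 12.1 on average in prediabetic livers.

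Adam8 had another order, with its lowest mean at 3 months. Adam8, a membrane metalloprotease best known from leukocytes, had a lowest value of 106, a median of 550 and a highest value of 1160 in 6-month livers, against 80.0, 68.6, 33.2, 100 and 137 in 3-month livers. The groups overlapped by a single 6-month liver, and the log2 difference was 2.65 ± 0.51 (SE, adjusted p = 0.146, limma). Adam8 averaged 665 in prediabetic and 618 in 2-week livers, close to the 634 of the 6-month group. It was lower in 3-month than in prediabetic livers by a log2 difference of -2.98 (adjusted p = 0.00143, limma), and the corresponding difference at 6 months was -0.33 (adjusted p = 0.686). Without 6-month replicate 6, the liver with the lowest value, the log2 difference between 6 and 3 months was 3.09 with an adjusted p of 0.0077 (limma).

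Rbbp8nl, a gene related to the DNA-end resection factor Rbbp8, ranged from 25.3 to 514 normalised reads at 6 months with a median of 123, against 3.81, 34.8, 5.53, 20.3 and 26.7 at 3 months. Its log2 difference was 3.08 ± 0.64 (SE, adjusted p = 0.230, limma). The prediabetic mean of 27.6 resembled the 3-month mean of 18.2 and not the 6-month mean of 191. Without 6-month replicate 6, again the lowest liver, the adjusted p was 0.0353 (limma).

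Jun, a subunit of the stress-responsive transcription factor AP-1, ranged from 7578 to 21288 at 6 months with a median of 10502, against 4488, 4092, 9668, 3005 and 3934 at 3 months. A single 3-month liver lay within the 6-month range, and the log2 difference was 1.23 ± 0.29 (SE, adjusted p = 0.446, limma). Clk1, a kinase that phosphorylates splicing factors, averaged 2303 ± 281 at 6 months (SD, n = 6) and 1573 ± 315 at 3 months (SD, n = 5), a log2 difference of 0.56 ± 0.12 (SE). Acp5, the tartrate-resistant acid phosphatase of macrophages and osteoclasts, ran from 654 to 853 at 6 months and from 367 to 583 at 3 months without overlap. Rgma, a co-receptor for bone morphogenetic proteins, averaged 246 ± 72.4 at 6 months and 114 ± 57.3 at 3 months (SD, n = 6 and 5). Tuba3a averaged 255 ± 76.9 at 6 months and 131 ± 40.6 at 3 months, a value that may include reads of near-identical tubulin copies. The adjusted p of Clk1, Acp5, Rgma and Tuba3a lay between 0.230 and 0.495 (limma).

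The 7 genes given on the other side had smaller differences. Hgf, the hepatocyte growth factor made mainly by stellate and endothelial cells, ranged from 1006 to 1374 at 6 months with a median of 1185, against 2074, 1575, 1612, 1361 and 1617 at 3 months. Its log2 difference was -0.49 ± 0.12 (SE, adjusted p = 0.524, limma), and a single 3-month liver lay within the 6-month range. Both late groups lay above the prediabetic mean of 614, by 0.95 log2 units at 6 months (adjusted p = 7.96e-05, limma) and by 1.43 at 3 months (adjusted p = 2.54e-06).

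Hif1an, the asparagine hydroxylase that inhibits HIF-1, averaged 217 ± 36.3 at 6 months and 311 ± 19.6 at 3 months (SD, n = 6 and 5). Nsd3, a histone methyltransferase, averaged 555 ± 32.0 at 6 months and 722 ± 67.2 at 3 months. Neither gene's groups overlapped. Ywhag, a 14-3-3 adaptor, averaged 2659 ± 170 at 6 months and 3354 ± 344 at 3 months, and the kinase gene Prkx averaged 299 ± 33.6 at 6 months and 398 ± 52.3 at 3 months. Akap12, a scaffold for protein kinase A, averaged 145 ± 23.4 at 6 months and 231 ± 78.1 at 3 months, against 141 in prediabetic livers. Rcc2, a mitotic regulator, averaged 425 ± 23.5 at 6 months and 574 ± 92.0 at 3 months. Their adjusted p lay between 0.514 and 0.617 (limma).

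**Figure D3:**
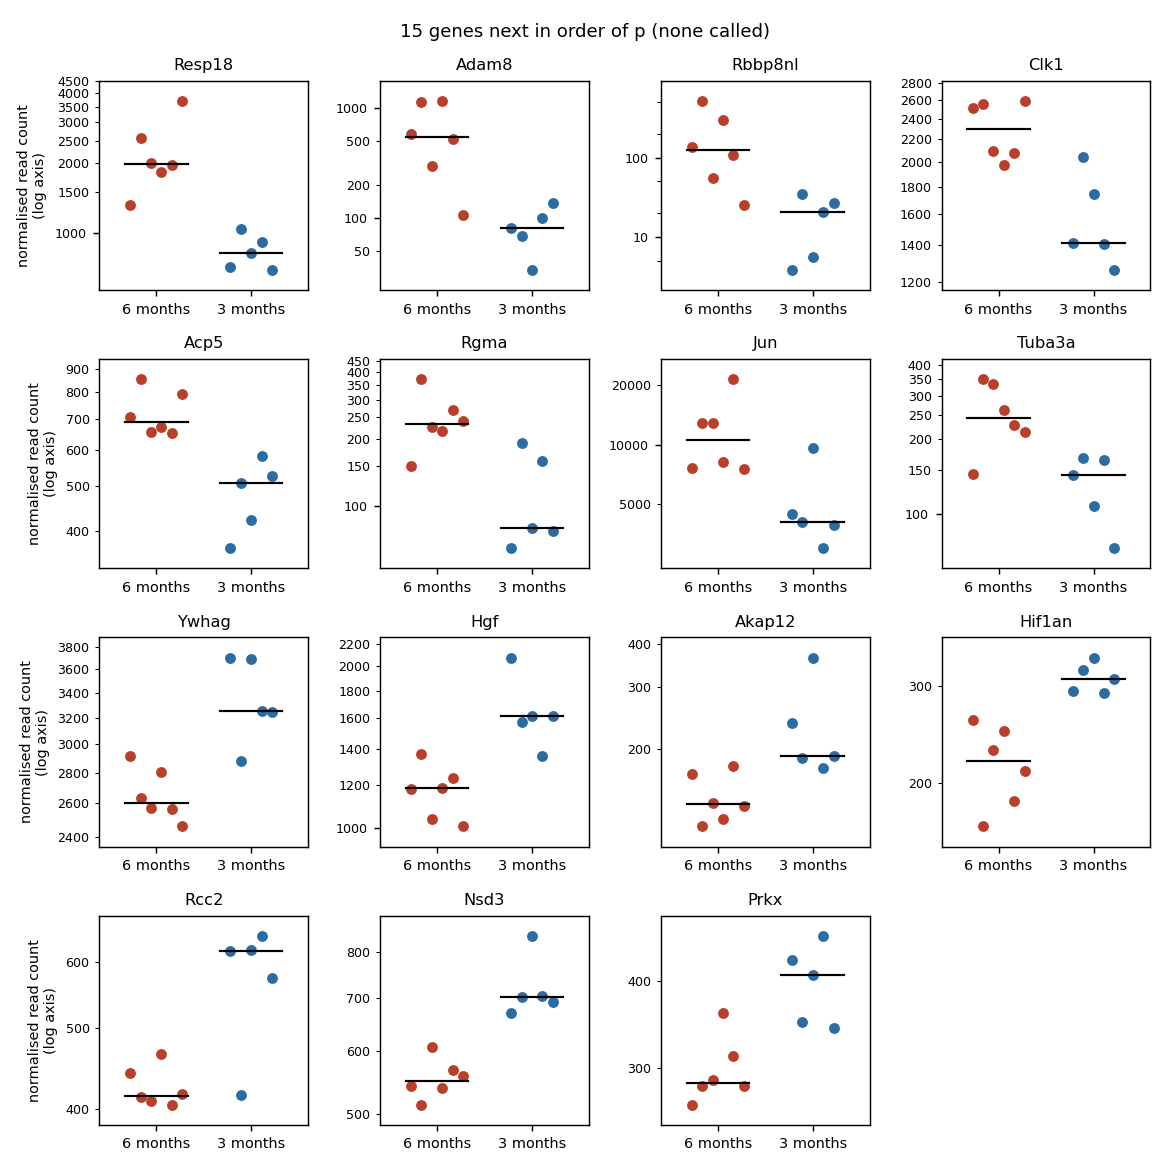
Normalised read counts on log axes for the 8 higher (upper 2 rows) and 7 lower (lower 2 rows) genes next in order of p, 1 point per liver, 6 months left of 3 months, with a line at each group median. Resp18 and Acp5 in the upper rows and Hif1an and Nsd3 in the lower rows show no overlap, and no gene passed the threshold.

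The main genes of insulin-driven lipid synthesis overlapped between the late groups, and Srebf1 and Scd were below prediabetic liver in both. Srebf1, which encodes the transcription factor SREBP-1 that drives fatty acid synthesis, ranged from 3766 to 11893 normalised reads at 6 months with a median of 5307, against 4232, 4566, 2924, 6452 and 8297 at 3 months. The ranges overlapped from 3766 to 8297, with a log2 difference of 0.23 and an interval from -0.37 to 0.83. Srebf1 was below the prediabetic mean of 12804 in both late groups, by a log2 difference of -1.10 at 6 months (adjusted p = 0.0114, limma) and -1.33 at 3 months (adjusted p = 0.00654). Scd, the stearoyl-CoA desaturase, had 33.8 to 2304 at 6 months with a median of 94.9, against 91.5, 36.9, 61.8, 69.9 and 698 at 3 months. In prediabetic livers it averaged 62742 and at 2 weeks 14895.

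The log2 difference of Scd from prediabetic liver was -8.65 at 6 months (adjusted p = 5.14e-06, limma) and -9.10 at 3 months (adjusted p = 5.02e-06). Its own difference between the late groups, 0.45 ± 0.86 (SE), was smaller than the spread between animals. Fatty acid synthase, Fasn, averaged 2784 ± 843 at 6 months and 2914 ± 593 at 3 months (SD, n = 6 and 5). Of 18 tested genes of fatty acid synthesis, 1 was lower and 0 were higher at an unadjusted p under 0.05, against 3.37% and 4.39% of all genes, and the list's median log2 difference was -0.12. With 1 late liver fewer at a time, 0 to 3 were lower. That gene was Me1, the malic enzyme that supplies NADPH, at 563 ± 104 at 6 months and 951 ± 277 at 3 months. The elongase gene Elovl5 averaged 1915 ± 798 at 6 months and 2754 ± 726 at 3 months, and the acetyl-CoA carboxylase gene Acaca averaged 785 ± 165 at 6 months and 1129 ± 421 at 3 months.

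None of the 48 gene lists held a called gene. Over all genes 51.7% of the differences were above 0. Members of a list were measured in the same few livers, so their signs are not independent counts, here and in the lists below. For insulin signalling the median log2 difference of 18 genes was -0.19, with 17 differences below 0 and 2 lower at an unadjusted p under 0.05, against 3.37% of all genes. Leaving out 1 late liver at a time gave 1 to 3 lower genes and medians from -0.23 to -0.14. Irs1, the first insulin receptor substrate, ranged from 284 to 816 at 6 months and had 777, 851, 1142, 423 and 961 at 3 months, a log2 difference of -0.74 ± 0.27 (SE, adjusted p = 0.632, limma). Mtor averaged 1480 ± 108 at 6 months and 1774 ± 188 at 3 months (SD, n = 6 and 5). The receptor gene Insr averaged 2472 ± 326 at 6 months and 2880 ± 717 at 3 months, and Irs2 averaged 1493 ± 490 at 6 months and 1521 ± 564 at 3 months.

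Some glucose-handling genes, such as G6pc, were spread widely between animals of both groups. The 12 gluconeogenesis genes had a median log2 difference of 0.05 and the 21 genes of glycolysis, fructose and glycogen metabolism one of 0.01, with none at an unadjusted p under 0.05 in either list. Pck1, the gluconeogenic enzyme PEPCK, averaged 118092 ± 50068 at 6 months and 103982 ± 40964 at 3 months. G6pc, the catalytic subunit of glucose-6-phosphatase, ranged from 2467 to 15274 at 6 months and from 775 to 45968 at 3 months. Ppp1r3b, which targets a phosphatase to glycogen, averaged 5058 ± 2050 at 6 months and 3699 ± 516 at 3 months, against 13422 in prediabetic livers.

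Genes of the growth hormone and IGF axis overlapped between the late groups as well. Igf1 averaged 10598 ± 1241 at 6 months and 11754 ± 1921 at 3 months (SD, n = 6 and 5), a log2 difference of -0.14 with an interval from -0.41 to 0.13. Both lay under the prediabetic mean of 18551, with adjusted p of 4.38e-04 at 6 months and 0.00386 at 3 months (limma). The growth hormone receptor gene Ghr averaged 7348 ± 2024 at 6 months and 8982 ± 2464 at 3 months, against 17285 in prediabetic livers. Igfbp1, an insulin-repressed binding protein, ranged from 6296 to 53764 at 6 months and from 6728 to 32201 at 3 months, against 2499 on average in prediabetic livers.

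Genes known to differ between male and female rat liver had 9 of 10 differences below 0, a median of -0.41 and 2 lower at an unadjusted p under 0.05, against 3.37% of all genes. The list was not split by the sex in which each gene is higher. The median ran from -0.53 to -0.13 with 1 late liver left out at a time, and it was -0.13 without 6-month replicate 6. Mup4, a major urinary protein gene that may share reads with its close relatives, ranged from 433 to 8928 at 6 months and had 4761, 4901, 4869, 4545 and 5904 at 3 months. Cyp2c7 averaged 73064 ± 15159 at 6 months and 127505 ± 69553 at 3 months (SD, n = 6 and 5), with a log2 difference of -0.69 ± 0.24 (SE, adjusted p = 0.632, limma). Cyp2c11, the main male-specific P450 of rat liver, averaged 22558 ± 13026 at 6 months and 23789 ± 9145 at 3 months, against 68610 in prediabetic livers. The labels name no sex. Of the Y-linked genes, Eif2s3y averaged 1216 at 6 months and 1183 at 3 months, and Kdm5d averaged 564 and 569. The low-level Ddx3y averaged 7.88 at 6 months and 16.1 at 3 months. The part of sex in the values of this list was not tested.

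Genes of fat oxidation, lipoproteins and bile acids held no called member. In fatty acid oxidation and ketogenesis the median of 25 genes was -0.09. Bdh1, which makes 3-hydroxybutyrate, averaged 5897 ± 2575 at 6 months and 8638 ± 2590 at 3 months. It was the only gene of that list at an unadjusted p under 0.05, where 3.37% of all genes were lower. Runs without 1 late liver gave 0 to 2 lower. Among 24 lipoprotein genes 3 were higher and 0 lower at that p, against 4.39% and 3.37% of all genes, and the median was 0.17. Over the runs without 1 late liver, 1 to 6 were higher and up to 3 lower, with 1 higher without 6-month replicate 2 or 6 or 3-month replicate 5. Apoc3, an inhibitor of triglyceride clearance, ranged from 85132 to 138762 at 6 months, against 65058, 75721, 81756, 87610 and 76601 at 3 months. Its groups overlapped narrowly, and the log2 difference was 0.48 ± 0.14 (SE, adjusted p = 0.632, limma). The prediabetic mean was 131686, above every 3-month liver. Slco1b2, a hepatocyte uptake transporter for bile acids, averaged 15765 ± 6363 at 6 months and 25208 ± 7106 at 3 months. Cyp7a1, which starts bile acid synthesis, averaged 3091 ± 1434 at 6 months and 2376 ± 1159 at 3 months.

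Among 23 genes of cholesterol synthesis and uptake the median was 0.11, with none at an unadjusted p under 0.05. Fdft1, squalene synthase, averaged 7883 ± 918 at 6 months and 6675 ± 1794 at 3 months (SD, n = 6 and 5), and both groups lay above the prediabetic mean of 3549. In xenobiotic metabolism, 32 cytochrome P450 genes had a median of 0.00, which ran from -0.14 to 0.08 with 1 late liver left out. In 30 genes of conjugation and the NRF2 response the median was -0.10, with 2 higher and 3 lower at an unadjusted p under 0.05, against 4.39% and 3.37% of all genes, and runs without 1 late liver gave 0 to 3 higher and 2 to 5 lower. Txnrd1, thioredoxin reductase, averaged 4381 ± 343 at 6 months and 5502 ± 535 at 3 months, against 4018 in prediabetic livers. Ephx1, microsomal epoxide hydrolase, averaged 25574 ± 4690 at 6 months and 35032 ± 7438 at 3 months.

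Most genes for ribosomal proteins and respiratory chain subunits leaned towards 6 months, by small amounts. Of 83 tested ribosomal protein genes, 30 were higher and 0 lower at an unadjusted p under 0.05, against 4.39% and 3.37% of all genes, and their median log2 difference was 0.23. Without 6-month replicate 6 there were 7 higher and without 6-month replicate 3 there were 55, while the median stayed between 0.20 and 0.28 in all 11 such runs. Genes of a complex are regulated together and are not independent counts, and several ribosomal genes have near-identical copies whose reads the counting may have split. Rpl3, a subunit of the large ribosomal particle, ranged from 11566 to 13956 at 6 months, against 11453, 9993, 9662, 11200 and 11342 at 3 months. The groups just failed to overlap, with a log2 difference of 0.27 ± 0.09 (SE, adjusted p = 0.632, limma). Rpl3 averaged 12797 in prediabetic livers.

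Among 76 nuclear genes of the respiratory chain, 74 differences were above 0, against 51.7% of all genes, with a median of 0.18. At an unadjusted p under 0.05, 9 were higher and 0 lower, against 4.39% and 3.37% of all genes. The number higher was 1 without 6-month replicate 2 or 3-month replicate 2 and 35 without 6-month replicate 1. Medians ran from 0.15 to 0.25 over all 11 runs. Ndufa2, a subunit of complex I, ranged from 1842 to 2360 at 6 months against 1647, 1592, 1695, 1732 and 1692 at 3 months, without overlap. Its log2 difference was 0.30 ± 0.11 (SE), and its prediabetic mean was 2332. All 76 intervals lay within 1 log2 unit of 0. The 16 tested mitochondrially encoded genes had a median of 0.09, with none at an unadjusted p under 0.05. Over the same libraries the 12 hepatocyte markers had a median of 0.26, with 11 differences above 0 and that of Hnf4a at -0.16. Their summed level was 7421240 to 10597000 at 6 months and 5021200 to 7710590 at 3 months. Alb alone held 3073590 to 6644300 at 6 months and 1899410 to 5132790 at 3 months. The part of hepatocyte markers in the ribosomal and respiratory chain differences was not tested. In bulk liver, fewer cells of a type and less RNA per cell cannot be told apart.

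Plasma protein genes gave positive medians with wide spread. The median of 23 acute phase genes was 0.32, with 21 differences above 0, and that of 35 coagulation and complement genes was 0.15. At an unadjusted p under 0.05, 2 acute phase genes were higher, against 4.39% of all genes, and 0 to 7 without 1 late liver. The coagulation and complement list had 4 higher and 1 lower, against 4.39% and 3.37% of all genes. Runs without 1 late liver gave 0 (without 6-month replicate 6 or 3-month replicate 2) to 12 (without 6-month replicate 2) higher. Fgb, the fibrinogen beta chain, averaged 593135 ± 228821 at 6 months and 380985 ± 122721 at 3 months (SD, n = 6 and 5), against 223700 in prediabetic livers. C4a, a complement gene, averaged 19118 ± 4251 at 6 months and 12952 ± 4099 at 3 months. Alb averaged 4905500 ± 1243620 at 6 months and 3151910 ± 1228000 at 3 months, with overlapping ranges and a log2 difference of 0.68 ± 0.30 (SE, adjusted p = 0.632, limma). Afp, the fetal counterpart of albumin, averaged 825 ± 146 at 6 months and 560 ± 153 at 3 months.

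By position in the liver lobule, the medians were 0.40 for 16 genes of the periportal zone and -0.16 for 16 genes of the pericentral zone. With 1 late liver left out at a time the periportal median ran from 0.12 (without 6-month replicate 2) to 0.53, and the pericentral median from -0.25 to -0.0023 (without 6-month replicate 1). At an unadjusted p under 0.05, 2 periportal genes were higher and 1 lower, and 1 pericentral gene was higher and 1 lower. Of all genes, 4.39% were higher and 3.37% lower at that p. Glul, glutamine synthetase of the last hepatocytes before the central vein, ranged from 8975 to 20174 at 6 months, against 26244, 16641, 25690, 20818 and 18742 at 3 months. Its log2 difference was -0.57 ± 0.21 (SE, adjusted p = 0.632, limma), and both groups lay above the prediabetic mean of 8289. Hfe, the haemochromatosis protein that controls hepcidin, ranged from 1010 to 1378 at 6 months, against 611, 989, 987, 941 and 869 at 3 months, without overlap.

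Collagen and other matrix genes known as miR-29 targets had a median log2 difference of -0.22, with 22 of 26 differences below 0 and none at an unadjusted p under 0.05. Col3a1, a fibrillar collagen, ranged from 2261 to 4107 at 6 months with a median of 2938, against 4472, 3462, 3463, 5291 and 2950 at 3 months. Its log2 difference was -0.38 with an interval from -0.80 to 0.04. Col1a1 averaged 160 ± 100 at 6 months and 189 ± 115 at 3 months (SD, n = 6 and 5), against 167 in prediabetic livers. The stellate cell list had a median of -0.16 over 18 genes and a summed level of 8377 to 12989 at 6 months and of 9449 to 12778 at 3 months. Lrat, the retinol-esterifying enzyme of stellate cells, averaged 708 ± 101 at 6 months and 877 ± 69.5 at 3 months.

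Among 23 miR-29 targets outside the matrix the median was -0.16, with 2 lower at an unadjusted p under 0.05, against 3.37% of all genes. Runs without 1 late liver gave 0 to 3, with 0 without 6-month replicate 2 or 6. The pair were Bace1, the beta-secretase gene, at 186 ± 36.3 at 6 months and 267 ± 55.6 at 3 months, and Cdc42, a small GTPase, at 2303 ± 192 at 6 months and 2573 ± 166 at 3 months. Sirt1, the deacetylase of the study's title, was not analysed here. Of 21 sirtuin and NAD genes, 2 were higher at an unadjusted p under 0.05, against 4.39% of all genes, and runs without 1 late liver gave 0 (without 6-month replicate 2) to 4. Sirt3, the mitochondrial deacetylase, averaged 1531 ± 299 at 6 months and 1224 ± 166 at 3 months, over a prediabetic mean of 943. Sirt7, a nucleolar member, averaged 643 ± 109 at 6 months and 510 ± 70.6 at 3 months.

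Markers of other cell types held no called gene. Kupffer cell and macrophage markers had a median of 0.06 over 18 genes, which ran from -0.12 to 0.20 with 1 late liver left out, with summed levels of 33763 to 90548 at 6 months and 34655 to 69816 at 3 months. Endothelial markers had a median of -0.07 over 16 genes and lymphocyte markers one of 0.16 over 17. Bile duct and progenitor markers had a median of 0.40, which ran from 0.21 (without 3-month replicate 1) to 0.69 (without 3-month replicate 4), with 12 of 13 differences above 0 and none at an unadjusted p under 0.05. Their summed level was 2337 to 3948 at 6 months and 1633 to 4329 at 3 months. Sox9, a bile duct transcription factor, ranged from 27.2 to 112 at 6 months and from 13.3 to 60.0 at 3 months, against 17.3 on average in prediabetic livers.

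**Figure D4:**
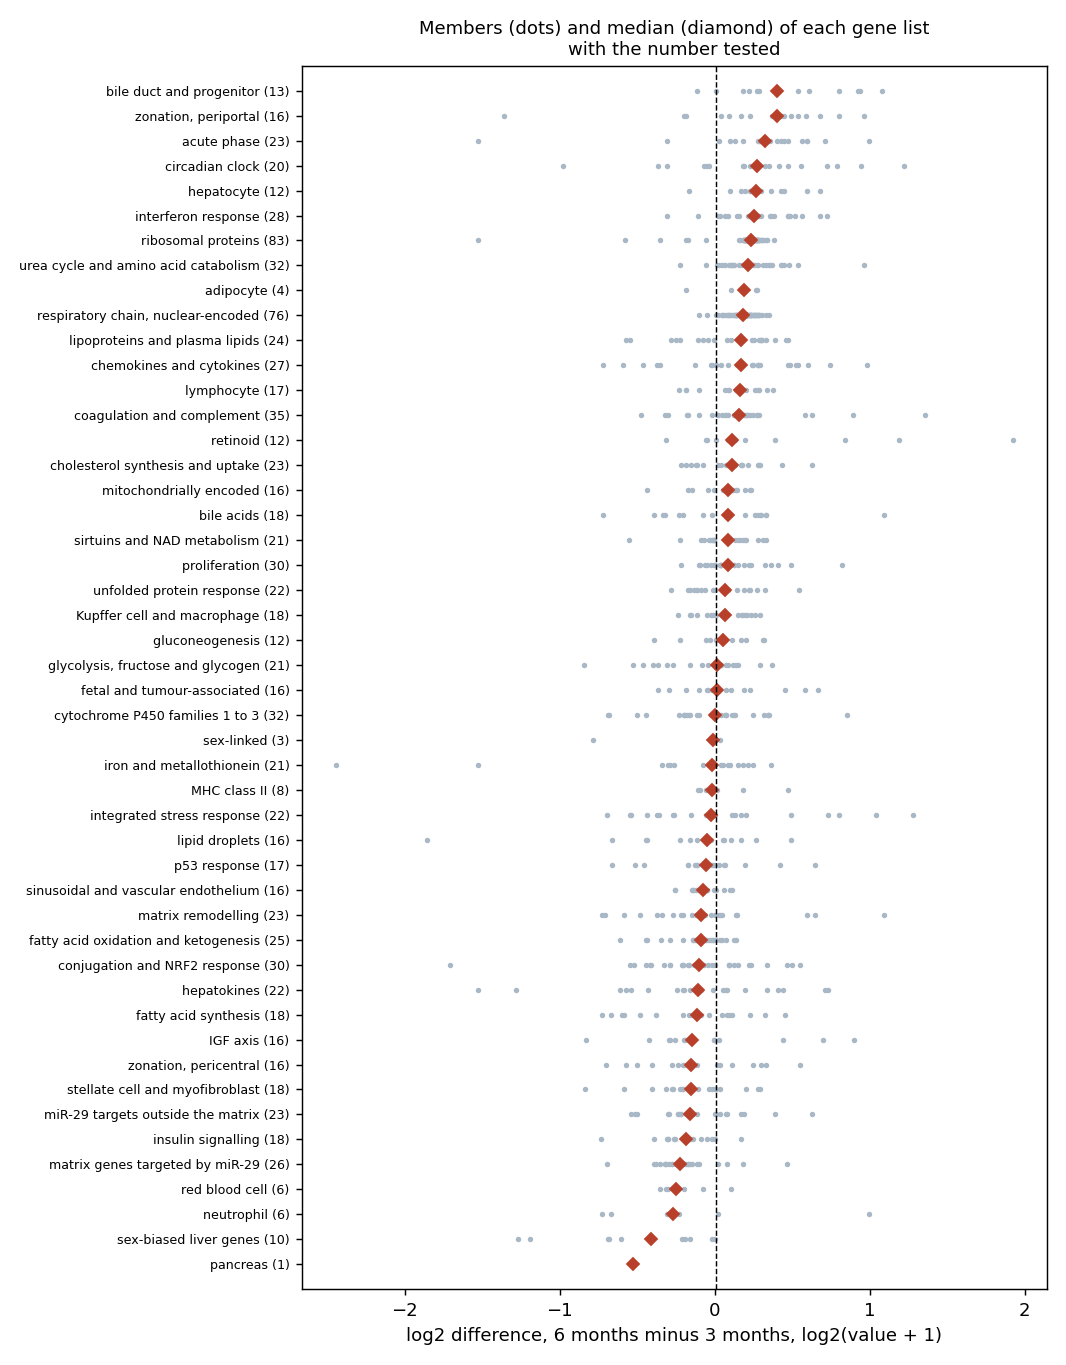
Log2 difference of 6 months minus 3 months on the log2(value + 1) scale for each tested member (dots) and the median (diamond) of 48 gene lists, with the number tested in brackets and a dashed line at the median of all genes, 0.0094. No dot is a called gene, and the list medians above 1 tested gene lie between -0.41 and 0.40.

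Animals of the same group differed widely in several sets of genes, chosen for description after their values were seen. The median standard deviation within a group was 0.27 log2 units over the 13640 tested genes, and 485 of them had one above 1. Lcn2, a lipocalin made in the acute phase response, ranged from 299 to 64692 at 6 months with a median of 2890, against 35265, 1020, 782, 1186 and 346 at 3 months. The high livers were 6-month replicates 5 and 3 and 3-month replicate 1. Orm1, an acute phase glycoprotein, was highest in the same 3 livers, at 319871 and 151422 in the 6-month livers and 263850 in the 3-month liver. It was between 26898 and 75488 in the other 6-month livers and between 23681 and 41316 in the other 3-month livers.

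S100a9, a neutrophil calprotectin subunit, had its highest values in those livers too, at 899 and 458 in the 6-month livers and 1508 in the 3-month liver. Its means of 336 ± 321 at 6 months and 463 ± 591 at 3 months (SD, n = 6 and 5) both stood above the 29.7 of prediabetic livers. Neutrophil markers summed to between 461 and 65797 at 6 months and between 941 and 38540 at 3 months, with Ltf listed at 0 in all 11 late livers. Those sums include Lcn2, which hepatocytes also make. Hamp, the iron hormone hepcidin, had 37.8 in 6-month replicate 1 and 7542 to 27728 in the other 6-month livers, against 5321 to 30755 at 3 months.

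Clock-controlled genes separated other animals. Dbp, an output gene of the circadian clock, had 10054 normalised reads in 6-month replicate 2 and 436 to 1852 in the other 6-month livers, against 119, 220, 1202, 7297 and 1474 at 3 months. Per2, a clock repressor, was highest in the same livers, at 2794 in 6-month replicate 2 and 1521 in 3-month replicate 4. Arntl, the activator whose phase is opposite, was lowest in them, at 52.0 in 6-month replicate 2, where the other 6-month livers had 321 to 1409, and at 67.5 in 3-month replicate 4, where the other 3-month livers had 543 to 1494. Sds, a serine-degrading enzyme, had 19221 in that 6-month liver and 134 to 2316 in the other 6-month livers, and 7359 in that 3-month liver and 82.1 to 881 in the other 3-month livers. The labels give no time of day for collection, and its part in these values was not tested. For the 20 clock genes, which include genes of opposite phase, the median difference between the late groups was 0.27. It ran from 0.15 to 0.43 with 1 late liver left out, highest without 3-month replicate 4. At an unadjusted p under 0.05, 1 was higher and 0 lower, against 4.39% and 3.37% of all genes. Without 1 late liver, 1 to 4 were higher and up to 1 lower.

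Of 22 genes of the integrated stress response, 3 were higher and 0 lower at an unadjusted p under 0.05, against 4.39% and 3.37% of all genes, and the median was -0.03. Leaving out 1 late liver at a time gave 1 to 3 higher, with 1 without 6-month replicate 2 or 5 or 3-month replicate 5, and up to 1 lower. Chac1, a glutathione-degrading target of ATF4, ranged from 59.4 to 231 at 6 months, against 66.5, 45.4, 37.8, 56.9 and 87.9 at 3 months, a log2 difference of 1.04 ± 0.30 (SE, adjusted p = 0.632, limma). Asns, another ATF4 target, ranged from 24.4 to 210 at 6 months and from 49.4 to 460 at 3 months, with a log2 difference of -0.69 ± 0.52 (SE).

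**Figure D5:**
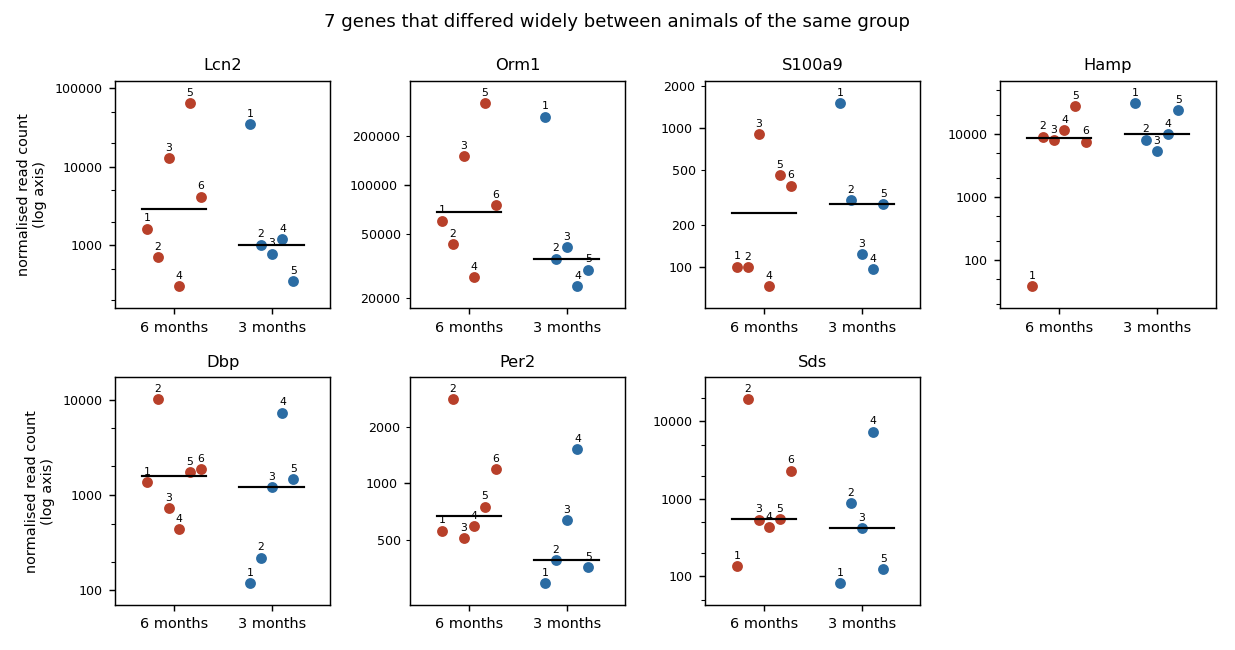
Normalised read counts on log axes for acute phase, neutrophil and iron genes (upper row) and clock and amino acid genes (lower row), 1 point per liver with its replicate number, 6 months left of 3 months, and a line at each group median. Livers 5 and 3 at 6 months and 1 at 3 months lie highest for Lcn2, Orm1 and S100a9, and livers 2 at 6 months and 4 at 3 months for Dbp, Per2 and Sds.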

How the data were processed

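PolyA+ RNA libraries of liver were compared by the labelled duration of diabetes. The table holds normalised counts for 20 UCD-T2DM libraries (unit: signal); the submitters' processing notes name STAR, Salmon, DESeq2 and the rat build rn6, with no version or order. The deposited signal values are not whole and whole reads could not be recovered, so no count model was used and read depth is unknown. Strandedness is not given in the sources used here, so overlapping genes may share reads.

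Values were tested with limma 3.58.1 (R 4.3.3) on log2(value + 1), in which the fold change of low genes is understated, over genes with a mean of at least 10 in the 20 libraries, with a variance trend, 4 group means and Benjamini-Hochberg adjustment, two-sided. Labels do not say that replicates came from separate cages or days, so the spread behind each p-value may be partly technical.

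Genes were named by rule: all called genes, up to 8 per direction next by p with a mean of at least 50, up to 4 called or 2 smallest-p members of each list, Srebf1 and Sirt1; some genes this rule names are not reported here. Members, lists and rules were chosen with earlier results of these data known, and further genes were named after their values were seen. Alternatives were another pseudocount, filter or rescaling, the 11 libraries alone, no trend, array weights, a replicate block and each late library left out. The replicate numbers did not pair the samples.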

Additional observations from a re-analysis of the deposited data

Results flagged for a closer look

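For the named genes 282 sets of 6-month or 3-month values were examined, with 4 near-identical loci counted once. In 20 of them the gap of a single liver to its nearest neighbour exceeded Dixon's 95% critical value. Chance alone gives about 1 in 20 for genes not picked by their values. Some of these genes were named after their values were seen, partly for wide spread between animals, so the rates cannot be compared. On the log2(value + 1) scale, 3-month replicate 1 stood apart for 7 genes, 3-month replicate 2 for 4, and the other livers for at most 2.

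In 3-month replicate 1, Lcn2 was at 35265 normalised reads against 346 to 1186 in the other 3-month livers, Orm1 at 263850 against 23681 to 41316, and the neutrophil collagenase gene Mmp8 at 356 against 19.5 to 42.2. The glucose-6-phosphate transporter gene Slc37a4 was low at 2524 against 5894 to 7143, as were Hfe at 611, the class II gene RT1-Bb at 614 and the Y-linked Eif2s3y at 982.

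In 3-month replicate 2, the called locus AABR07015081.2 was lowest at 5646 against 7152 to 7743, Igf1 was lowest at 8453, Cyp2b3 at 11450 and Rcc2 at 416. Nsd3 was highest in 3-month replicate 3 at 839, and Mup4 in 3-month replicate 5 at 5904.

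Among 6-month livers, Hamp was at 37.8 in replicate 1 against 7542 to 27728 in the others, and Fasn was highest in the same liver at 4459. Hfe was highest in replicate 2 at 1378 and AABR07015081.2 in replicate 3 at 1838. Replicate 5 was lowest for AABR07015066.1, at 2.03 against 123 to 516. AABR07015055.1, AABR07015078.1 and AABR07015080.2 are near-identical to it and are the same measurement. In replicate 6 Cd14, the endotoxin co-receptor gene, was highest at 3830, and the collagen gene Col5a1 was lowest at 288.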

How the results depend on the processing

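The same 2 loci were the only calls with a pseudocount of 0.5, without a filter on low values, with a mean of at least 50, under either rescaling, without a variance trend, with array weights, in a fit of the 11 late livers alone and, as an alternative added after seeing the data, without prediabetic replicate 2. With a pseudocount of 10, 5 genes were called, 3 of them higher at 6 months. Leaving out 1 late liver at a time gave 0 to 4 called genes, with 0 to 2 higher and 0 to 2 lower, each with 1 sample fewer. The number of genes whose groups did not overlap rose to between 133 and 332 in those runs, which fewer livers make easier. The replicate numbers did not pair the samples, with same-number correlations of deviations from -0.17 to 0.11 and 1 of 5 best with its own number. The fit with the replicate block called 1 gene, Adam8, which was higher, and 0 lower, and both loci had an adjusted p of 0.198 there (limma). Replicate number 6 occurs only at 6 months, so the block takes that liver out of the comparison. Adam8 had the same log2 difference, 3.09, in this fit as without 6-month replicate 6, and the 2 runs are not separate results. Neither rescaling moved the median of all genes by more than 0.0031 or changed the sign of a named gene or list median. In the runs without 1 late liver, added for the lists after seeing the data, 0 list members were called, and 32 of the 48 list medians kept their sign while 16 changed it. Read depth is unknown, and with 6 and 5 livers 14.5% of genes had intervals reaching beyond 1 log2 unit.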

Other observations

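Several further groups held values but no called gene. The 28 interferon response genes had 26 differences above 0, against 51.7% of all genes, and a median of 0.25. At an unadjusted p under 0.05, 1 was higher and 0 lower, against 4.39% and 3.37% of all genes. Runs without 1 late liver gave 0 to 7 higher. Ifi27 averaged 7794 ± 877 at 6 months and 6073 ± 843 at 3 months (SD, n = 6 and 5), against 8437 in prediabetic livers. The 32 genes of the urea cycle and amino acid catabolism had 30 differences above 0 and a median of 0.22. Here too 1 was higher and 0 lower at an unadjusted p under 0.05. Runs without 1 late liver gave 0 to 5 higher and up to 1 lower. Fah, the last enzyme of tyrosine breakdown, averaged 14548 ± 2366 at 6 months and 12212 ± 1984 at 3 months.

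Cyr61, a matricellular gene of the YAP response, ranged from 238 to 2173 at 6 months, against 162, 285, 302, 436 and 394 at 3 months, with both high 6-month values in the livers that also had the highest Ppp1r15a, at 2063 and 3053. Inhbe, a hepatokine gene, ranged from 248 to 3822 at 6 months, against 6333, 1175, 3184, 2623 and 8968 at 3 months. All of these lay below the prediabetic mean of 11140. Tgfb3 averaged 89.6 ± 10.2 at 6 months and 160 ± 74.0 at 3 months. Xbp1, a regulator of the secretory pathway, averaged 12202 ± 5518 at 6 months and 8697 ± 5079 at 3 months, against 5425 in prediabetic livers.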
